A study of Saccharomyces cerevisiae x Saccharomyces paradoxus and Saccharomyces cerevisiae and Saccharomyces paradoxus with 10 samples.

Results

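The genes described here are regulators of respiratory and oxygen-responsive transcription in yeast: HAP2, HAP3, HAP4 and HAP5, which encode the subunits of the CCAAT-binding HAP complex, the heme-dependent activator HAP1, and the hypoxic repressors ROX1 and MOT3. They were chosen by name, and a gene was used where the deposited table had a row under its standard name. Of the 7 names, 4 had a row among 4637 genes, namely HAP2 (YGL237C), HAP3 (YBL021C), HAP4 (YKL109W) and HAP5 (YOR358W). HAP1, ROX1 and MOT3 had no row in the table used here and were not analysed here. All 4 genes with a row passed the filter on low values and were among the 4544 genes tested.

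Messenger RNA, selected by its poly-A tail, and ribosome-protected fragments (RPF, mRNA pieces covered by a ribosome, here from the 80S monosome fraction) were sequenced in a yeast hybrid and its parents, to tell cis-acting from trans-acting differences between 2 species. The hybrid was a diploid made by crossing Saccharomyces cerevisiae BY4176 (MAT-alpha lys2 ura::KAN) with Saccharomyces paradoxus CBS432 (MATa ura::HYG), so that both alleles of a gene were read in the same cells. The parents were labelled S. cerevisiae BY4176, a haploid, and S. paradoxus CBS432, a diploid, although the description of the mixed parental mRNA library speaks of haploid strains. Both kinds of library had 2 replicates in the hybrid and 2 in the parents, which makes 4 settings and 10 samples in all.

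All strains were grown from single colonies in YPD, a rich glucose medium, at 30 °C to log phase. Parental RPF came from libraries that mixed both parents, whereas for parental mRNA 1 replicate was a mixed library and the other came from separate libraries. Which parental mRNA replicate was the mixed one is not given in the sources used here. Species, ploidy and mating type cannot be told apart in any comparison between the parents, or between the hybrid and the S. cerevisiae parent. The S. paradoxus parent is labelled diploid like the hybrid, but the labels conflict, as given above. Its ploidy and mating type are therefore not settled for comparisons of the hybrid with that parent. URA3 was well covered in the parental libraries and far lower in the hybrid (values below), so the strains behind the parental libraries differ in this gene from the ura:: strains crossed. That difference cannot be told apart from the other differences in trans values and in comparisons with a parent.

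In S. cerevisiae, HAP2, HAP3 and HAP5 form the DNA-binding core that recognises the sequence CCAAT, and HAP4 carries the activation domain and is the subunit whose amount is known to limit activity. HAP4 transcription is repressed by glucose and released on non-fermentable carbon sources, and the complex then activates genes of the respiratory chain, the tricarboxylic acid cycle and heme synthesis. HAP1 activates other heme-dependent genes and ROX1, and ROX1 and MOT3 repress hypoxic genes in air. S288C, the laboratory background from which BY strains derive, is known to carry a Ty insertion in HAP1. Whether BY4176 has it was not tested.

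In the R64 reference of S. cerevisiae, HAP2 lies on chromosome VII from 52731 to 53528 on the minus strand, HAP3 on chromosome II from 181660 to 182094 on the minus strand, HAP4 on chromosome XI from 232227 to 233891 on the plus strand and HAP5 on chromosome XV from 1010161 to 1010889 on the plus strand. Each is annotated as 1 coding segment. The absent members are annotated there too, with HAP1 on chromosome XII from 646415 to 650923, ROX1 on chromosome XVI from 679693 to 680799 and MOT3 on chromosome XIII from 409154 to 410626, all on the plus strand. The build of the deposited table is not given in the sources used here, so these positions come from R64 alone, and its chromosome coordinates were not joined to the table.

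The 500 bases upstream of each R64 start codon were searched on both strands for CCAAT and for TNATTGGT, a longer form of the HAP site. Every TNATTGGT match holds ATTGG, the complement of CCAAT, so it is also a CCAAT match. CCAAT was found upstream of 62.4% of 6000 coding genes and TNATTGGT upstream of 8.6%. Among the HAP genes themselves, CCAAT was found upstream of HAP3 and HAP4, and TNATTGGT upstream of HAP4. Among the 20 respiratory genes described further on, CCAAT was found upstream of 17 and TNATTGGT upstream of 6. The windows of 25 bases below, from the R64 reference of RefSeq and written 5′ to 3′ on the strand of the gene, show the match of HAP3 and HAP4 and the TNATTGGT matches of these respiratory genes, with the match in capitals. A match is a description of letters, and no match says only that they are not in this window.
HAP3, chrII:182145-182169, minus strand, CCAAT starting 65 bases before the start codon: tagctttccgCCAATcaaactcaag
HAP4, chrXI:232124-232148, plus strand, 95 bases before: acacatatTTATTGGTctcctagta
RIP1, chrV:107004-107028, plus strand, 248 bases before: cataacggACCAATCAgcgttttgc
HEM1, chrIV:927065-927089, plus strand, 379 bases before: ttcgtcgcTCATTGGTctgcggccg
COX13, chrVII:144587-144611, plus strand, 213 bases before: tttttcccACCAATGAgaggcggta
QCR7, chrIV:1496714-1496738, minus strand, 182 bases before: ttgttttgACCAATCAggagcgacg
COX6, chrVIII:209480-209504, plus strand, 217 bases before: aagggaccTAATTGGTccggtcaaa
COR1, chrII:135851-135875, minus strand, 351 bases before: ctttctgcACCAATGAaatgccaat

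Values are coverage, the bases of reads laid on the unmasked bases of a gene as ppm of all such bases in that column, and they are divided by the unmasked length (ppm per kb) only where genes are compared with each other. Total coverage per column ran from 60.6 to 167 Mb as deposited. URA3, taken as the gene meant by the ura:: labels of both strains crossed, lay between 3.99 and 12.5 ppm in the 8 hybrid columns and between 164 and 247.5 ppm in the 8 parental ones. Of 4 alpha-specific genes fixed as markers, 3 had a row, and together they had 2594 and 2610 ppm in S. cerevisiae parental mRNA against 62.2 and 50.9 ppm in S. paradoxus. The 3 of 6 a-specific genes with a row summed to between 52.6 and 92.0 ppm in all 8 mRNA columns. Of 6 genes fixed as markers of haploids of either mating type, 5 had a row. Their sums in parental mRNA were 1336.5 and 1318.9 ppm in S. cerevisiae and 56.5 and 62.2 ppm in S. paradoxus. In hybrid mRNA they lay between 23.7 and 45.3 ppm. The ploidy of the parents was not tested. The deposited marks for genes affected by ploidy or by mating type were 0 for all 4 HAP genes.

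HAP4 had the most mRNA per kb of the 4 subunit genes, by a wide margin in the hybrid and in the S. paradoxus parent and by a narrow one in the S. cerevisiae parent. In hybrid mRNA it had 491 ± 90.6 ppm per kb (SD, n = 2) for the S. cerevisiae allele and 433 ± 60.9 for the S. paradoxus allele. The other subunit genes lay between 54.8 and 101 ppm per kb in hybrid mRNA. In the parents, HAP4 had 233 ± 29.8 ppm per kb of mRNA in S. cerevisiae and 621 ± 180 in S. paradoxus. HAP3 came next in S. cerevisiae with 179 ± 19.9 ppm per kb, followed by HAP2 with 130 ± 9.48 and HAP5 with 91.5 ± 6.17. In S. paradoxus the order after HAP4 was HAP5 with 104 ± 10.9 ppm per kb, HAP3 with 90.3 ± 2.25 and HAP2 with 79.3 ± 4.31. Neighbours in these parental mRNA orders were farther apart than the sum of their SDs, for HAP4 and HAP3 of S. cerevisiae by little (a gap of 54.4 against 49.7 ppm per kb). In hybrid mRNA, HAP2 and HAP5 of S. cerevisiae were not (63.4 ± 5.28 against 54.8 ± 5.04 ppm per kb), and neither were HAP5 and HAP2 of S. paradoxus (101 ± 25.1 against 93.0 ± 4.54).

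In RPF, HAP4 kept the first place only in the S. paradoxus parent. The S. cerevisiae alleles of HAP3 and HAP4 in the hybrid had 110 ± 19.5 and 104 ± 24.9 ppm per kb, closer together than the sum of their SDs. In the S. cerevisiae parent HAP4 came last of the 4, with 39.1 ± 9.32 ppm per kb against 39.5 ± 5.92 for HAP5. In the S. paradoxus parent it had 135 ± 22.5 ppm per kb, followed by HAP5 with 94.5 ± 14.5, a gap larger than the sum of their SDs. Among the S. paradoxus alleles of the hybrid, HAP5 came first with 115 ± 15.3 ppm per kb and HAP4 had 87.4 ± 14.3, closer together than that sum.

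**Figure D1:**
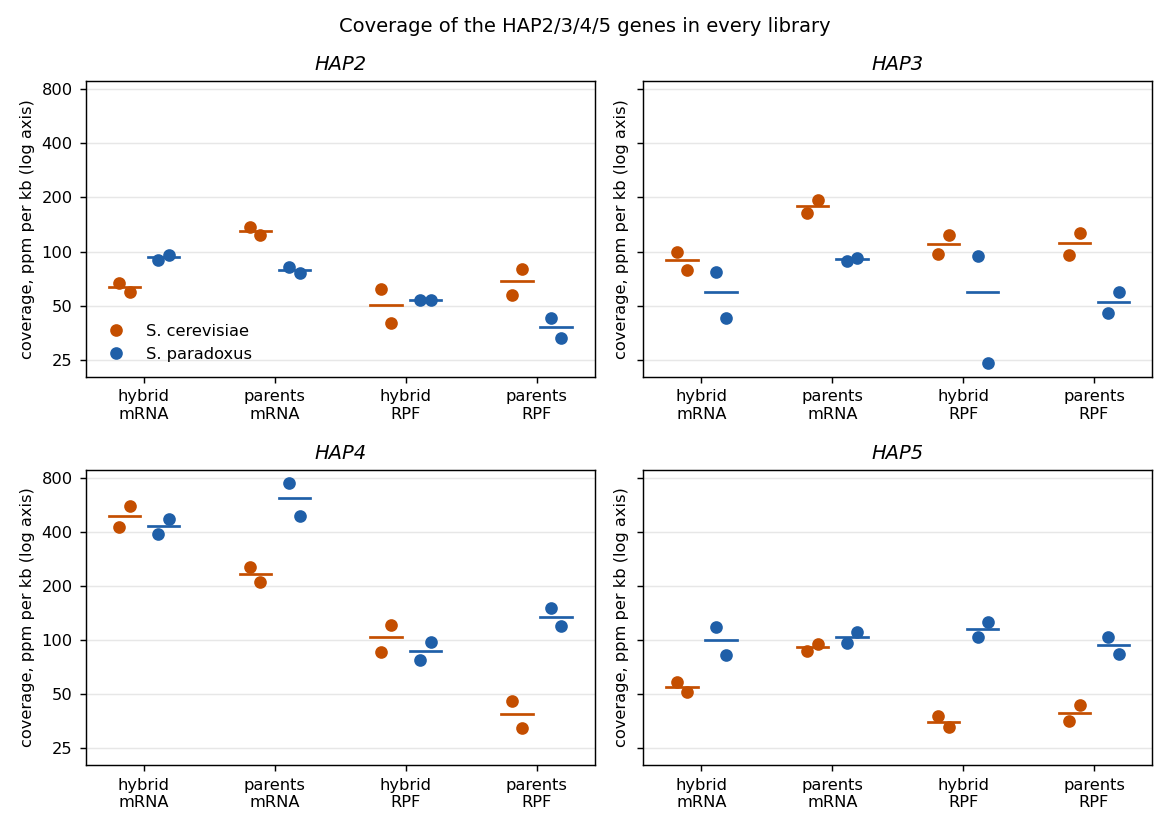
Coverage per kb of unmasked bases (log axis) of the 4 HAP genes in hybrid and parental mRNA and RPF, with 1 point per replicate, a bar for their mean, and S. cerevisiae and S. paradoxus in separate colours. HAP4 mRNA of the S. cerevisiae parent (211.9 and 254 ppm per kb) lies below that of the S. paradoxus parent (494 and 748 ppm per kb), while the hybrid alleles lie between 389 and 555 ppm per kb.

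HAP4 had the lowest ratio of RPF to mRNA of the 4 genes, each taken as a share of its own column. It was 0.211 and 0.202 for the S. cerevisiae and S. paradoxus alleles of the hybrid and 0.167 and 0.222 in the S. cerevisiae and S. paradoxus parents. These values stood at the 5.7th to the 8.49th percentile of the genes tested in the respective strain. HAP2, HAP3 and HAP5 had ratios from 0.435 to 1.23. Coverage per gene does not show where on the mRNA the ribosomes were.

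HAP4 was the subunit gene with the largest difference between the species, and alleles in the hybrid did not share it. HAP4 mRNA was 2.62-fold lower in the S. cerevisiae than in the S. paradoxus parent, while the alleles in the hybrid differed by 1.13-fold. RPF showed the same pattern. In the parents, HAP4 mRNA had 334 and 279 ppm in S. cerevisiae and 983 and 649 ppm in S. paradoxus. Both S. cerevisiae values were below both S. paradoxus values. In the hybrid, the S. cerevisiae allele had 561 and 729 ppm and the S. paradoxus allele 512 and 625 ppm, and the alleles overlapped across replicates. Within each replicate the S. cerevisiae allele was the higher, with log2 ratios of 0.13 and 0.22.

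With S. cerevisiae as numerator, the log2 ratio of HAP4 mRNA was −1.39 ± 0.10 (SE, n = 2 replicates) between the parents, with an adjusted p of 2.0e-09. Here and below, adjusted p-values are two-sided, come from limma fits over all 4544 genes and are adjusted by the Benjamini-Hochberg method, and a gene is called where its adjusted p is under 0.05. The allele ratio in the hybrid, called cis, was 0.18 ± 0.10 with an adjusted p of 0.15, and its 95% interval ran from −0.02 to 0.38. The parental minus the hybrid ratio, called trans, was −1.56 ± 0.14 with an adjusted p of 8.2e-08. Since trans is computed from cis, errors of the 2 values are not independent.

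HAP4 RPF had 60 and 42.7 ppm in the S. cerevisiae parent and 199 and 157 ppm in the S. paradoxus parent. The hybrid alleles had 114 and 160 ppm (S. cerevisiae) and 102 and 128 ppm (S. paradoxus) and overlapped across replicates. Within each replicate the S. cerevisiae allele was again the higher, with log2 ratios of 0.16 and 0.32. The parental RPF ratio was −1.79 ± 0.19 (adjusted p = 4.9e-07), the cis RPF ratio 0.24 ± 0.21 (adjusted p = 0.50) and the trans RPF value −2.03 ± 0.28 (adjusted p = 7.2e-05), all in log2. Translational efficiency (TE), tested as the RPF ratio minus the mRNA ratio, differed by −0.41 ± 0.21 between the parents (adjusted p = 0.29) and by 0.06 ± 0.23 between the alleles (adjusted p = 0.93). The parental and trans calls of HAP4 held under every alternative run. In the authors' deposited table, HAP4 was marked as higher in cis in S. cerevisiae mRNA (adjusted p = 0.000334) and as higher in trans in S. paradoxus for mRNA and for translation (adjusted p = 0.000244 and 0.000634). The authors marked 2734 genes in cis mRNA, where 3503 had an adjusted p, and 2879 in trans mRNA, where 3065 had one. In trans translation they marked 1287 genes, where 2693 had an adjusted p. Their adjusted p for cis mRNA was the same for all 4 HAP genes, so it does not rank them. The same held in trans mRNA for HAP2, HAP4 and HAP5, and in trans translation for HAP4 and HAP5.

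Set against its own parent, the S. cerevisiae HAP4 allele was higher in the hybrid, by 1.07 ± 0.15 in mRNA (2.1-fold, adjusted p = 9.7e-06) and by 1.40 ± 0.26 in RPF (2.64-fold, adjusted p = 0.00076). The S. paradoxus allele was lower in hybrid mRNA than in its parent, at −0.50 ± 0.17 (adjusted p = 0.035), and had −0.63 ± 0.26 in RPF (adjusted p = 0.13). That S. paradoxus mRNA call was lost without hybrid mRNA replicate 1 (−0.35, adjusted p = 0.22), without parental mRNA replicate 1 (−0.20, adjusted p = 0.39), and without either parental RPF replicate (−0.50, adjusted p = 0.054). It was also lost with 1 spread shared by all settings (adjusted p = 0.13), with no filter on low values (adjusted p = 0.056) and with median-of-ratios scaling (−0.45, adjusted p = 0.071). In bulk samples, fewer cells with a transcript and less RNA per cell cannot be told apart.

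HAP5 differed between the alleles inside the hybrid, in mRNA and in RPF, and between the parents it was called in RPF and not in mRNA. The S. cerevisiae allele had 36.2 and 31.8 ppm of hybrid mRNA and the S. paradoxus allele 73.3 and 51.3 ppm, so both S. cerevisiae values were below both S. paradoxus values. The cis mRNA ratio was −0.85 ± 0.15, a 1.8-fold difference (adjusted p = 0.00025), and it held under every alternative run. In hybrid RPF the alleles were farther apart, at 23.4 and 20.3 ppm against 64.8 and 78.2 ppm. The cis RPF ratio was −1.69 ± 0.33, a 3.22-fold difference (adjusted p = 0.0023). Without hybrid RPF replicate 2 it was −1.45 and no longer called (adjusted p = 0.081).

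Between the parents, HAP5 mRNA had 54.0 and 59.4 ppm in S. cerevisiae and 59.5 and 69.0 ppm in S. paradoxus, groups that came within 1 ppm of each other, and the log2 ratio was −0.18 ± 0.17 (adjusted p = 0.38) with a 95% interval from −0.53 to 0.17. The trans mRNA value was 0.67 ± 0.23, opposite in sign to cis (adjusted p = 0.027). It was not called without hybrid mRNA replicate 1 (0.51, adjusted p = 0.16), without parental mRNA replicate 1 (0.63, adjusted p = 0.14), without parental mRNA replicate 2 (0.71, adjusted p = 0.11) or with the shared spread (adjusted p = 0.23). HAP5 RPF of the parents had 21.9 and 27.1 ppm in S. cerevisiae against 64.9 and 52.2 ppm in S. paradoxus. That ratio was −1.24 ± 0.29, a 2.36-fold difference (adjusted p = 0.0029), and without parental RPF replicate 1 it was −0.93 (adjusted p = 0.13). The trans RPF value, 0.44 ± 0.44, was not called (adjusted p = 0.57).

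The RPF ratios of HAP5 lay farther from 0 than its mRNA ratios in both strains, but the TE test made no call. The TE difference was −0.84 ± 0.36 between the alleles (adjusted p = 0.28) and −1.06 ± 0.34 between the parents (adjusted p = 0.070). Without hybrid RPF replicate 1 or 2 the parental TE difference, still −1.06, had an adjusted p of 0.045. The authors' deposited table marked HAP5 as higher in cis in S. paradoxus for mRNA and for translation (adjusted p = 0.000334 and 0.000686) and as higher in trans in S. cerevisiae for both (adjusted p = 0.000244 and 0.000634). It marked 1276 genes in cis translation, where 2365 had an adjusted p, and the other numbers of marks are given with HAP4. These marks come from the authors' own tests and are not results of the TE test above.

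HAP2 mRNA differed in opposite directions in the hybrid and in the parents. In the hybrid, the S. cerevisiae allele had 30.6 and 27.2 ppm and the S. paradoxus allele 40.8 and 43.8 ppm. In the parents, S. cerevisiae had 62.3 and 56.2 ppm and S. paradoxus 37.5 and 34.7 ppm. Neither pair of groups overlapped. The cis mRNA ratio was −0.55 ± 0.18 (adjusted p = 0.020), the parental ratio 0.71 ± 0.19 (adjusted p = 0.0039) and the trans value 1.25 ± 0.26 (adjusted p = 0.0010). For mRNA, the authors' deposited table marked HAP2 as higher in S. paradoxus in cis (adjusted p = 0.000334). In trans it was marked as higher in S. cerevisiae (adjusted p = 0.000244), and no adjusted p was given for translation.

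The HAP2 cis call was lost without hybrid mRNA replicate 1 (−0.68, adjusted p = 0.052) or replicate 2 (−0.41, adjusted p = 0.26). The parental call was lost without parental mRNA replicate 1 (0.69, adjusted p = 0.071) or replicate 2 (0.72, adjusted p = 0.060). With the shared spread, the cis, parental and trans values had adjusted p-values of 0.24, 0.068 and 0.064. In RPF, the S. cerevisiae and S. paradoxus alleles overlapped at 28.1 and 18.1 ppm against 24.4 and 24.4 ppm, and the parents had 25.9 and 36.4 ppm against 19.4 and 15.1 ppm. The parental RPF ratio of 0.83 ± 0.34 had an adjusted p of 0.064. It was called with the shared spread (adjusted p = 0.033), with median-of-ratios scaling (0.91, adjusted p = 0.045) and without hybrid RPF replicate 1 or 2 (adjusted p = 0.039).

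HAP3 was the shortest of the 4 genes. Its 257 unmasked bases stood at the 3.29th percentile of all rows, and its ratio of amino acid-changing to silent substitution rates (Ka/Ks), 0.0068 in the authors' deposited table, at the 2.78th percentile. HAP3 mRNA had 42.3 and 49.5 ppm in the S. cerevisiae parent against 22.8 and 23.6 ppm in S. paradoxus, and the groups did not overlap. The parental ratio was 0.96 ± 0.25, a 1.95-fold difference (adjusted p = 0.0028), and the cis mRNA ratio 0.61 ± 0.23 (adjusted p = 0.041). The hybrid alleles had 25.5 and 20.4 ppm against 19.8 and 10.9 ppm, with both S. cerevisiae values above both S. paradoxus values. The trans value, 0.35 ± 0.34, was not called (adjusted p = 0.45). The authors marked HAP3 as higher in cis in S. cerevisiae mRNA (adjusted p = 0.000334) and gave no adjusted p for trans or for translation.

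The HAP3 cis mRNA call was lost when any one library of hybrid mRNA, parental mRNA or parental RPF was left out, with values from 0.36 (without hybrid mRNA replicate 2) to 0.87 (without hybrid mRNA replicate 1). It was also lost with the shared spread (adjusted p = 0.41) and without the filter (adjusted p = 0.054). The parental mRNA call was lost without parental mRNA replicate 2 (0.88, adjusted p = 0.074) and with the shared spread (adjusted p = 0.0996). The 2 replicates of cis RPF were far apart, at 0.03 and 2.29 in log2. The S. paradoxus allele there had 24.3 and 6.14 ppm, the lower value resting on 372 bases of scaled coverage, while the S. cerevisiae allele had 24.8 and 31.9 ppm. The mean cis RPF ratio, 1.16 ± 0.49, was not called (adjusted p = 0.14), and neither was the parental RPF ratio of 1.06 ± 0.44 (adjusted p = 0.068). Without hybrid RPF replicate 1 the cis RPF ratio was 2.29 (adjusted p = 0.0080) and the parental one 1.06 (adjusted p = 0.018), and without hybrid RPF replicate 2 the parental one had the same value and adjusted p.

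**Figure D2:**
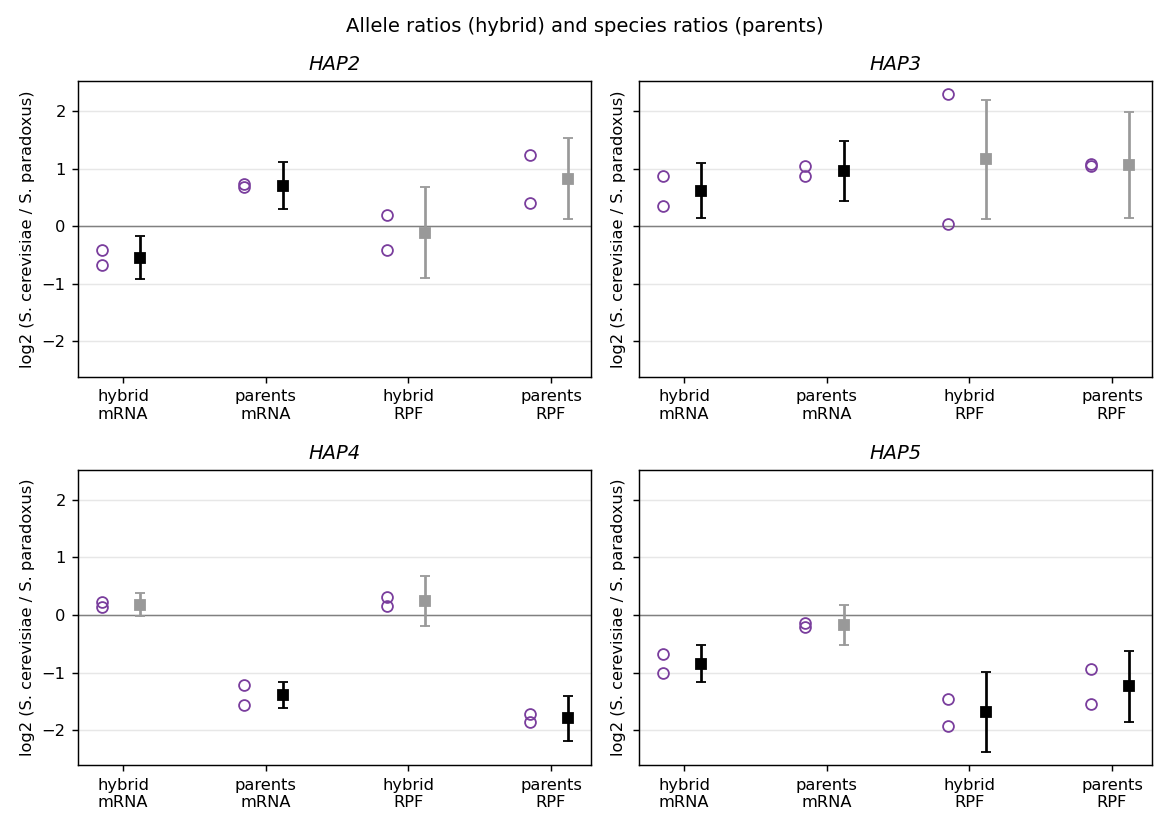
Log2 ratios of S. cerevisiae over S. paradoxus coverage for the 4 HAP genes in hybrid and parental mRNA and RPF, with open circles for the 2 replicates and squares with bars for the fitted mean and its 95% interval (black where called, grey where not). HAP4 is near 0 in the hybrid and between −1.22 and −1.87 in the parents, whereas HAP5 mRNA is lower for S. cerevisiae in the hybrid and near 0 in the parents.

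Counted over the 4 subunit genes, cis mRNA made 3 calls, HAP3 higher and HAP2 and HAP5 lower in S. cerevisiae, where 38% of all genes tested were called. Parental mRNA made 3 calls of 4 (background 58.6%) and trans mRNA 3 of 4 (background 36%). In RPF, HAP5 alone was called in cis (1 of 4, background 12.1%), HAP4 and HAP5 between the parents (2 of 4, background 35.9%) and HAP4 alone in trans (1 of 4, background 10.9%). No subunit gene was called for TE by limma, between the alleles (background 1.41%) or between the parents (background 6.34%), and 1 of the 4, HAP5, had an unadjusted p under 0.05 in both TE tests. The background for mRNA was high, so counts of 3 in 4 say little about these genes as a group. With the shared spread the cis, parental and trans mRNA counts were each 1.

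The order of the 4 genes by size of difference changed with the comparison. The absolute trans mRNA value of HAP4 stood at the 95.4th percentile of the genes tested, that of HAP2 at the 92.8th, that of HAP5 at the 75.5th and that of HAP3 at the 49th. In absolute cis mRNA, HAP5 stood at the 90.4th percentile, HAP3 at the 83.2nd, HAP2 at the 79.6th and HAP4 at the 37.0th. In absolute parental mRNA, HAP4 stood at the 91.5th, HAP3 at the 83.3rd, HAP2 at the 71.6th and HAP5 at the 23.3rd. In absolute cis RPF, HAP5 stood at the 95.4th percentile, HAP3 at the 90.4th, HAP4 at the 36.9th and HAP2 at the 18.6th. Cis and trans had opposite signs in mRNA for HAP2, HAP4 and HAP5 and the same sign for HAP3, where 56.2% of all genes tested had opposite signs. Because trans is the parental minus the hybrid ratio, error in the hybrid ratio alone pushes the 2 towards opposite signs.

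**Figure D3:**
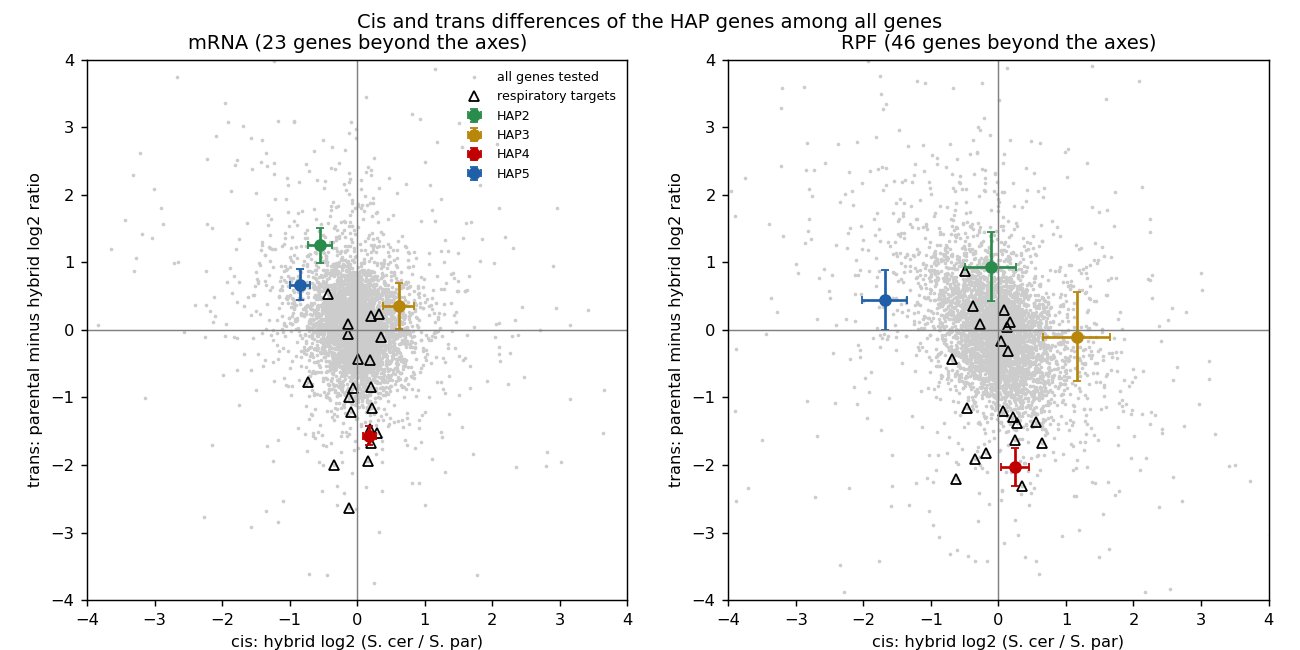
Trans (parental minus hybrid log2 ratio) against cis (log2 ratio of alleles, S. cerevisiae over S. paradoxus) in mRNA and in RPF, with grey points for all genes tested, triangles for respiratory genes known as HAP targets, and filled circles with SE bars for the 4 HAP genes. HAP4 lies low with cis near 0 (trans −1.56 in mRNA and −2.03 in RPF), HAP5 lies to the left (cis −0.85 and −1.69), and most triangles lie below 0 on the trans axis in mRNA.

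Against their own parent, the S. cerevisiae alleles of the 3 DNA-binding subunits were lower in hybrid mRNA, while HAP4 was higher. HAP2 fell by 1.02 ± 0.21 (adjusted p = 0.00051), HAP3 by 0.99 ± 0.23 (adjusted p = 0.0017) and HAP5 by 0.73 ± 0.18 (adjusted p = 0.0022) on the log2 scale. All 4 subunit genes were thus called, where 50.3% of all genes were, and the median over all genes in this comparison was −0.13. In RPF, HAP4 alone was called for this allele (background 18.2%), and HAP2, HAP3 and HAP5 had −0.44 ± 0.36, −0.01 ± 0.40 and −0.16 ± 0.31. The S. paradoxus alleles of HAP2, HAP3 and HAP5 had 0.23 ± 0.21, −0.64 ± 0.32 and −0.06 ± 0.20 in mRNA and were not called, against a background of 30.1%. Without hybrid mRNA replicate 1, HAP3 there had −1.05 and was called (adjusted p = 0.041). None of the 4 S. paradoxus alleles was called in RPF by limma (background 12.5%), and 1 of them, HAP4, had an unadjusted p under 0.05. With the shared spread, HAP4 was called there, with an adjusted p just under 0.05. These comparisons use the same hybrid and parental libraries as cis and trans and are not independent of them.

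**Figure D4:**
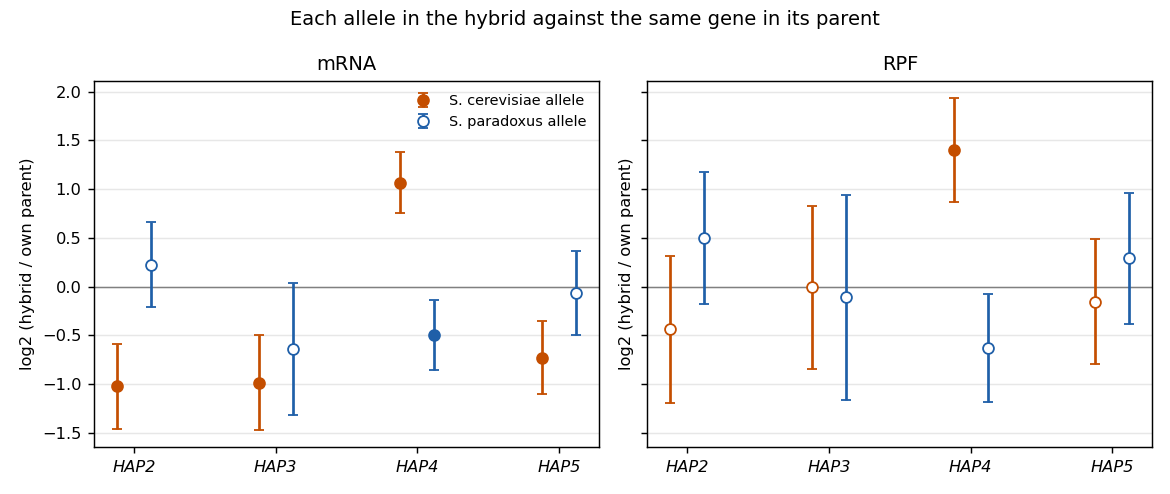
Log2 level of each HAP allele in the hybrid over the same gene in its own parent, in mRNA and in RPF, with points for the fitted value, bars for its 95% interval, filled points where called and open points where not. The S. cerevisiae HAP4 allele lies at 1.07 in mRNA and 1.40 in RPF, and the S. cerevisiae alleles of HAP2, HAP3 and HAP5 lie between −1.02 and −0.73 in mRNA.

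The 4 genes differed in how far their sequences had diverged, per the authors' deposited table. Coding divergence was 13.2% for HAP2, 12.8% for HAP4, 11.9% for HAP5 and 7.37% for HAP3, where the median of all rows was 10.1%. Promoter divergence was 28.1% for HAP5, at the 80.7th percentile of 3604 rows with a value and above the median of 20.5%. It was 18.8% for HAP4, 17.5% for HAP2 and 13.9% for HAP3. HAP4 was marked there as having a TATA box and HAP5 as lacking one.

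Levels of the subunit genes did not run in parallel. Over the 16 columns, Pearson correlations of their log2 levels with each other ran from −0.38 (HAP3 with HAP5) to 0.45 (HAP2 with HAP3). The columns share libraries and differ mostly by mRNA against RPF, so these are descriptions over non-independent points. Genes whose levels followed HAP4 most closely were PPQ1 (r = 0.98), SBE2 (r = 0.97) and PRS1 (r = 0.97). For HAP5 they were YIM1 (r = 0.94), PRP45 (r = 0.92) and IES5 (r = 0.92), for HAP2 SPC19 (r = 0.93), YFL042C (r = 0.91) and YMR087W (r = 0.91), and for HAP3 THO1 (r = 0.87), CLC1 (r = 0.87) and XPT1 (r = 0.86). With Spearman correlation, 2 of the 3 nearest genes of HAP4 stayed among its nearest 3, 1 of those of HAP3, 1 of those of HAP5 and 0 of those of HAP2.

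Respiratory genes known as HAP targets mostly differed between the parents in the same direction as HAP4. Of 30 genes on the list, 20 had a row and were tested. Between the parents 13 were lower and 2 higher in S. cerevisiae mRNA, with a median log2 ratio of −0.93 against 0.04 over all genes. Of all genes tested 58.6% were called there, 1265 lower and 1398 higher. In trans mRNA 14 were lower and 0 higher (background 36%, with 763 lower and 874 higher), with a median of −0.86 against 0.05 over all genes. In cis mRNA 3 were higher and 3 lower (background 38%), with a median of 0.08 against −0.02 over all genes. In RPF 12 were lower and 0 higher between the parents (background 35.9%), and 11 were lower and 0 higher in trans (background 10.9%). Over the alternatives run, the number lower in mRNA ran from 13 to 14 between the parents and from 10 (shared spread) to 14 in trans.

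CYC1, which encodes the main aerobic form of cytochrome c, had 79.7 and 95.1 ppm of mRNA in the S. cerevisiae parent and 542 and 648 ppm in the S. paradoxus parent. In the hybrid its S. cerevisiae allele had 420 and 401 ppm and its S. paradoxus allele 478 and 420 ppm. Both S. cerevisiae parental values were below all others. The parental ratio was −2.76 ± 0.10 (adjusted p = 6.4e-14), the cis ratio −0.13 ± 0.09 (adjusted p = 0.29) and the trans value −2.63 ± 0.13 (adjusted p = 3.0e-11). RIP1, the Rieske iron-sulfur protein of the cytochrome bc1 complex, followed with a parental ratio of −2.34 ± 0.11 (adjusted p = 2.7e-12) and a trans value of −2.00 ± 0.15 (adjusted p = 8.0e-09).

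Of the tricarboxylic acid cycle genes on the list, KGD1 and MDH1 were lower in trans (−0.42 and −0.44), and SDH2, SDH3, SDH4, KGD2, LPD1 and FUM1 were not called there. LPD1 (dihydrolipoamide dehydrogenase) and FUM1 (fumarase) were higher in the S. cerevisiae parent, by 0.56 ± 0.09 (adjusted p = 3.4e-05) and 0.41 ± 0.10 (adjusted p = 0.0014), and had trans values of 0.24 ± 0.12 and 0.21 ± 0.13 that were not called. HEM1, which makes the first intermediate of heme synthesis, was lower in both cis (−0.72 ± 0.08, adjusted p = 2.0e-06) and trans (−0.78 ± 0.12, adjusted p = 8.1e-05). SDH2 and SDH4, subunits of succinate dehydrogenase, had cis ratios of 0.35 ± 0.13 and −0.44 ± 0.14 (adjusted p = 0.042 and 0.020). All 6 listed genes with TNATTGGT in the R64 window, shown above, were among those lower in trans mRNA, with values from −2.00 to −0.78. Of the 14 without it, 8 were, CYC1 among them. Over all 4544 genes tested, 763 were lower in trans mRNA. The relation of TNATTGGT to the trans values was not tested.

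**Figure D5:**
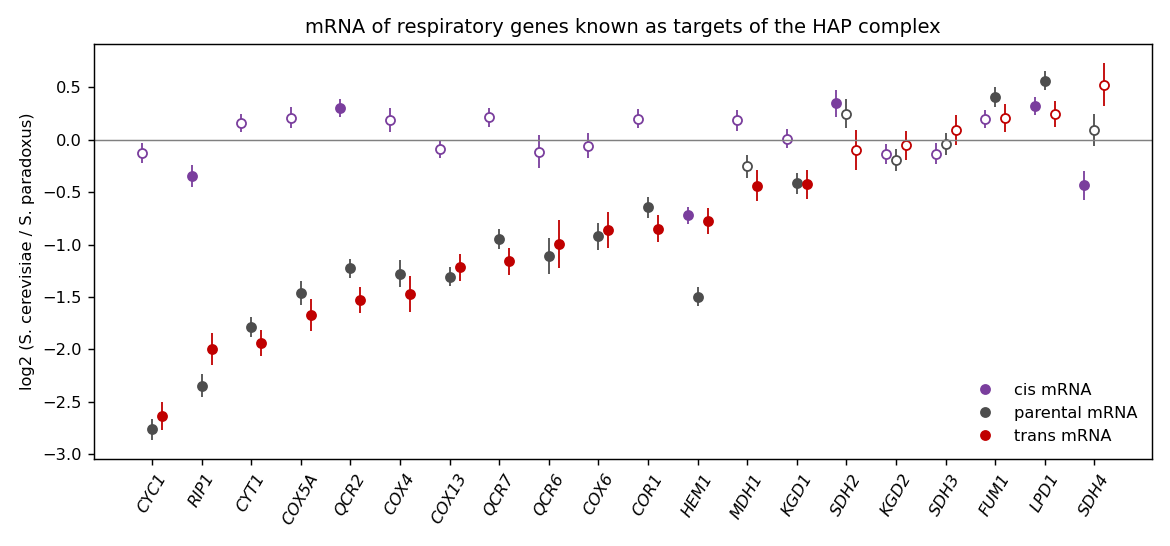
Log2 ratios (S. cerevisiae over S. paradoxus) of mRNA for 20 respiratory genes known as HAP targets, in cis, between the parents and in trans, with SE bars, filled points where called and open points where not, ordered by the trans value. Trans and parental values run from −2.63 and −2.76 for CYC1 upwards, with 14 genes called lower in trans, while cis values lie between −0.72 and 0.35.

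In the hybrid, the S. cerevisiae alleles of the respiratory list were mostly higher than in their parent. In mRNA 12 were higher and 3 lower (median 0.69 against −0.13 over all genes, background 50.3%), and in RPF 11 were higher and 0 lower (median 0.78 against 0.01, background 18.2%). The 3 lower in mRNA were SDH3, FUM1 and LPD1, and 1 was left with median-of-ratios scaling, without hybrid mRNA replicate 2 or without parental mRNA replicate 2. The S. paradoxus alleles went the other way in mRNA, with 2 higher, HEM1 and KGD1, and 10 lower (median −0.34 against −0.05, background 30.1%). The count of 10 was 4 without hybrid mRNA replicate 2 and 5 with the shared spread. The count of 2 was 1 with the shared spread and without either hybrid mRNA replicate or parental mRNA replicate 2. In S. paradoxus RPF, CYC1 was higher and FUM1 and QCR2 were lower, 3 calls of 20 where the background was 12.5%. HAP4 itself moved in these directions in mRNA, as given above. The part that HAP4 level, ploidy or mating type had in these values was not tested.

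Genes listed as regulators in glucose repression of HAP4 and of respiration gave no call in trans mRNA and 2 in trans RPF. The list was not limited to regulators of HAP4. Of 12 genes listed 11 were tested, and limma called 0 in trans mRNA (background 36%), with 2 of them at an unadjusted p under 0.05. With median-of-ratios scaling 1 was called lower there. In trans RPF, TUP1, a general corepressor, was lower for S. cerevisiae (−0.96 ± 0.27, adjusted p = 0.026), as was REG1, a regulatory subunit of the Glc7 phosphatase (−0.82 ± 0.26, adjusted p = 0.044), where the background was 10.9%. CAT8, a zinc cluster activator of gluconeogenic genes, was lower for S. cerevisiae in cis (−1.47 ± 0.21, adjusted p = 2.1e-05) and between the parents (−0.78 ± 0.23, adjusted p = 0.0066). MIG1, the glucose repressor, was lower in cis (−0.56 ± 0.10, adjusted p = 0.00018) and between the parents (−0.37 ± 0.11, adjusted p = 0.0065). Against their own parent, 6 S. cerevisiae alleles of the list were higher and 1 lower in hybrid mRNA (median 0.32 against −0.13 over all genes, background 50.3%). With the shared spread these counts were 1 and 0. Of the S. paradoxus alleles 2 were higher and 0 lower in mRNA (background 30.1%). In RPF 0 S. cerevisiae alleles were called (background 18.2%), and 2 S. paradoxus alleles were lower (background 12.5%). Between the parents 3 of the 11, CAT8, MIG1 and REG1, were lower in mRNA and 0 higher (background 58.6%), and 3 were lower in RPF, CAT8, TUP1 and REG1 (background 35.9%). Without parental mRNA replicate 1 the mRNA counts were 1 lower and 2 higher, and with the shared spread 1 was lower.

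Genes that HAP1 is known to activate were mostly lower in the S. cerevisiae parent, and their relation to HAP1, which was not analysed here, was not tested. Of 11 genes listed 8 were tested, and between the parents 7 were lower and 1 higher in S. cerevisiae mRNA (median −1.04 against 0.04 over all genes, background 58.6%). In trans mRNA 6 were lower and 1 higher (background 36%). CYT1 (cytochrome c1) had a trans value of −1.94 ± 0.12 (adjusted p = 6.8e-10), and it shares the list of HAP targets, as does CYC1. The exception was YHB1, the nitric oxide-detoxifying flavohemoglobin, with 2.16 ± 0.09 between the parents (adjusted p = 4.1e-13), −0.94 ± 0.08 in cis (adjusted p = 6.7e-08) and 3.10 ± 0.12 in trans (adjusted p = 7.0e-13). SOD2 (mitochondrial superoxide dismutase) and NCP1 (cytochrome P450 reductase) had cis ratios of −0.35 ± 0.09 (adjusted p = 0.0041) and 0.29 ± 0.09 (adjusted p = 0.019). With the shared spread the number lower in mRNA was 5 between the parents and 3 in trans, and the trans number was 4 without hybrid mRNA replicate 2 or without parental mRNA replicate 1.

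Hypoxic genes that ROX1 or MOT3 are known to repress in air were mixed. Of 24 listed 16 had a row and 15 were tested, with 3 higher and 8 lower between the parents in mRNA (background 58.6%) and 1 higher and 6 lower in trans mRNA (background 36%). In RPF 6 were higher and 4 lower between the parents (background 35.9%). In trans RPF, FET4 and AUS1 were higher and ERG2, CYC7 and OLE1 lower, 5 calls of 15 where the background was 10.9%. The CYC7 call rests on low values, with 5.31 and 0 ppm for the S. paradoxus allele in hybrid RPF. Its S. cerevisiae allele had 10.6 and 8.31 ppm there. FET4, a low-affinity iron transporter, was higher for S. cerevisiae in cis (1.63 ± 0.16, adjusted p = 2.9e-07) and between the parents (2.22 ± 0.17, adjusted p = 3.6e-09). TIR3, a cell wall mannoprotein, had 3.64 ± 0.27 in cis (adjusted p = 9.8e-09), 2.11 ± 0.30 between the parents (adjusted p = 7.3e-06) and −1.52 ± 0.41 in trans (adjusted p = 0.0067). The TIR3 ratios rest on low S. paradoxus values, 5.17 and 13.9 ppm in hybrid mRNA and 7.17 and 6.83 ppm in parental mRNA. OLE1, the fatty acid desaturase, was lower between the parents (−0.96 ± 0.10, adjusted p = 1.1e-07) and in trans (−1.70 ± 0.13, adjusted p = 1.0e-08). CYC7, the hypoxic form of cytochrome c, was lower between the parents (−1.18 ± 0.30, adjusted p = 0.0026). HEM13, a heme synthesis enzyme, was lower in cis (−0.63 ± 0.11, adjusted p = 0.00027), and AUS1, a sterol importer, was higher in trans (0.72 ± 0.17, adjusted p = 0.0031). AUS1 mRNA lay between 2597 and 5925 ppm, against at most 718 ppm for OLE1 mRNA. Its S. paradoxus parental replicates were far apart, at 4289 and 2597 ppm. Whether that row measures AUS1 alone was not tested. With the shared spread, the number lower in mRNA was 5 between the parents and 4 in trans, and 0 were higher in trans. Without parental mRNA replicate 2, 0 were higher in trans too.

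Other regulators of oxygen and sterol responses were few. Of 8 listed 7 were tested, and between the parents 2 were higher and 2 lower in S. cerevisiae mRNA (background 58.6%). With the shared spread 1 was higher and 1 lower there. In cis mRNA 1 was higher and 1 lower (background 38%), and in trans mRNA 1 was higher and 0 lower (background 36%). MGA2, an activator of OLE1, was higher in S. cerevisiae between the parents (0.80 ± 0.12, adjusted p = 1.1e-05) and in trans (0.81 ± 0.16, adjusted p = 0.00065). UPC2, a sterol regulator that the hypoxic list holds too, was lower in cis (−0.46 ± 0.13, adjusted p = 0.0087) and between the parents (−0.92 ± 0.14, adjusted p = 1.8e-05). ECM22, its paralog, was higher between the parents (0.47 ± 0.15, adjusted p = 0.013) and SPT23, the paralog of MGA2, lower (−0.43 ± 0.13, adjusted p = 0.0077). SUT1, a regulator of sterol uptake that is on the hypoxic list too, was higher in cis (0.62 ± 0.16, adjusted p = 0.0040).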

How the data were processed

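The deposited values used were signal: for each gene, species and replicate the authors summed base-level coverage across unmasked bases. Per the file's description, the authors scaled the S. paradoxus coverage by 1 factor per replicate to equal totals, which removes differences in total output between species. The submitters' processing notes name CASAVA 1.8.2 and Bowtie 0.12, and no source used here gives genome builds. Adjusted p-values, calls, percent divergence, the Ka/Ks ratio and marks that the authors deposited are printed as theirs. Coverage is no read count, so the reads behind a value are unknown. Not used were 24 other per-sample columns, and 3 blank lines were skipped. Of 4637 rows, 4401 matched R64 by systematic name.

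Coverage in the 16 columns was divided by the column total (ppm), and log2(ppm + 0.5) was taken, which understates differences of weakly covered genes. Genes with a mean of at least 3 ppm were tested. The plan allowed for read counts, but the values are coverage, so a log-scale test was run. limma 3.58.1 in R 4.3.3 fitted the log2 species ratios with 1 mean per setting (4 residual degrees of freedom), weights estimated per setting and a spread that followed mean level, and fitted each species' levels likewise. Fits were tested on simulated data. The weights were used because replicate log2 ratios differed more in RPF (median 0.35 hybrid, 0.33 parental) than in mRNA (0.17 and 0.19). Replicates are labelled as biological for the hybrid and the separate parental mRNA libraries. Elsewhere no label says that they were separate cultures, and p-values then measure only the spread between samples, which may be technical.

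The members, lists and tests were chosen with earlier results of these data known. Named genes are all members with a row, the 3 genes most correlated with each, and, for each list, the 2 called genes with the largest difference in each direction in cis, parental and trans mRNA. Other genes were named after their values were seen. Alternatives were a shared spread, a pseudocount of 2, no filter, median-of-ratios scaling, an offset for unmasked length, a replicate block and leaving out each library. In fits without a library the setting weights came from all libraries, so a lone sample was assumed to vary as its setting did. The list counts were put through these alternatives after their values were seen.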

Additional observations from a re-analysis of the deposited data

Results flagged for a closer look

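Results are listed here where the difference between species in the parents departed from that between alleles in the hybrid by the interaction test in limma. HAP4 did so in mRNA (−1.56) and in RPF (−2.03), HAP2 in mRNA (1.25) and HAP5 in mRNA (0.67). The HAP4 values are negative in every replicate of the parents and positive in every replicate of the hybrid, in mRNA and in RPF alike. The HAP2 mRNA ratios are negative in both hybrid replicates and positive in both parental ones.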

How the results depend on the processing

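Of 256 values of the 4 HAP genes under alternatives other than leaving out a library, 243 kept their direction and their side of the threshold, 10 lost a call and 3 gained one. With 1 spread shared by all settings, the genes called numbered 600 in cis mRNA, 1175 in cis RPF, 1752 in parental mRNA, 552 in trans mRNA, 1019 in trans RPF and 20 in cis TE. Against the parent they numbered 1324 (mRNA) and 1290 (RPF) for S. cerevisiae and 724 and 944 for S. paradoxus. The HAP genes called were then 1 each in cis, parental and trans mRNA, 0 for S. paradoxus mRNA and 1 for S. paradoxus RPF against the parent. For S. paradoxus mRNA against the parent, 0 HAP genes were called without the filter on low values or with median-of-ratios scaling, and 35 genes were called for cis TE without the filter. Causes were not tested.

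Leaving out 1 library at a time gave 821 to 1797 genes called in cis mRNA, 132 to 574 in cis RPF, 791 to 1680 in parental RPF, 1047 to 1699 in trans mRNA, 204 to 563 in trans RPF, 12 to 174 in cis TE and 70 to 312 in parental TE. Against the parent it gave 313 to 836 for S. cerevisiae RPF, 742 to 1397 for S. paradoxus mRNA and 199 to 595 for S. paradoxus RPF. HAP genes called ranged from 1 to 3 in cis and parental mRNA, 0 to 2 in cis RPF, 1 to 4 in parental RPF, 0 to 1 in parental TE and 0 to 1 for S. paradoxus mRNA against the parent. Values that changed sign were all uncalled. They were HAP2 cis RPF (−0.42 to 0.19) and parental TE (−0.30 to 0.54), HAP3 trans RPF (−1.23 to 1.03), cis TE (−0.58 to 1.67) and RPF against the parent (−0.21 to 0.19 for S. cerevisiae, −1.06 to 0.84 for S. paradoxus), HAP4 cis TE (−0.018 to 0.14) and HAP5 S. paradoxus mRNA against the parent (−0.32 to 0.19).

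Median-of-ratios scaling moved the median log2 ratio of parental RPF replicate 2 from −0.12 to 0.01. It moved the share of calls that were higher from 38.5% to 62.5% in parental TE and from 41.4% to 54.4% in S. cerevisiae mRNA against the parent. A fit with a replicate block gave 1750 genes called in cis mRNA and changed no call of a HAP gene. Deviations of same-numbered samples correlated at 0.18 between parental mRNA and parental RPF and between −0.05 and 0.02 for the other pairs of settings. The main fits did not pair samples by number. Depth limits HAP3, whose values rest on 257 unmasked bases.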
